A study of Mus musculus with 29 samples.

Results

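Calcineurin, its NFAT substrates, its Rcan regulators and FKBP12, the protein that binds tacrolimus, were followed through 29 mouse brain libraries by 10 genes. The genes were taken by symbol (Ppp3ca, Ppp3cb, Ppp3r1, Fkbp1a, Rcan1, Rcan2, Nfatc1, Nfatc2, Nfatc3 and Nfatc4). Each symbol matched 1 of the 25746 Ensembl identifiers counted, and all 10 genes passed the filter on low counts that left 17031 genes for testing. The study used mice of both sexes, about 3 months old, and sex was not a factor in the tests here. It induced a photothrombotic stroke, a light-triggered clot, in the right sensorimotor cortex and collected the injured brain region at 21 days post injury (dpi). Stroked wildtype (WT) mice on a C57BL/6 background were left untreated (n = 4), received tacrolimus from the day of stroke (acute, n = 3) or received it from a week later (delayed, n = 5), in both cases from an osmotic pump placed under the skin. Stroked Rag2-/- mice (n = 3), which lack mature T and B cells, and stroked NSG mice (n = 3), which have a NOD background and also lack functional natural killer cells, received no tacrolimus. Non-stroked tissue came from WT (n = 4), Rag2-/- (n = 3) and NSG mice (n = 4). It is labelled Ctrl and is called non-stroked here. The study's methods name the contralesional side as a source of RNA, while its results describe naive mice. Which of these the Ctrl libraries hold is not settled by the labels. No group of non-stroked mice received tacrolimus, so the drug was seen only in stroked tissue, and tacrolimus itself, its tissue level and calcineurin activity were not measured in these files.

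Calcineurin is a phosphatase switched on by calcium and calmodulin. It is built of a catalytic A subunit, encoded by Ppp3ca or Ppp3cb in most tissues, and a calcium-binding B subunit encoded by Ppp3r1, and it is abundant in neurons. When active, it removes phosphates from the NFAT proteins, which then enter the nucleus and switch on genes, among them interleukin-2 in T cells. Tacrolimus binds FKBP12, the product of Fkbp1a, and the pair blocks calcineurin. Rcan1 and Rcan2 encode proteins that bind and restrain calcineurin, and the shorter transcript of Rcan1 is itself a known target of NFAT. The drug acts on the enzyme, so levels of these transcripts do not measure its inhibition.

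The library names fall into a series called Imm2 (20 libraries) and a series called TF (9 libraries), with 17789044 to 43403413 counts per library and a median of 37223696 in Imm2 against 23155303 in TF. All 5 delayed mice were TF, all Rag2-/-, NSG and non-stroked mice were Imm2, and the untreated stroked WT (2 of each) and acute mice (1 Imm2, 2 TF) were in both. The acute libraries differed in markers of injury. Levels are in CPM, counts scaled to library size. Lcn2, an acute phase gene of reactive astrocytes, was at 67.2 CPM in acute mouse 2_1, at 8.47 in mouse 5m_1 and at 0.167 in mouse 1_5, against 21.1 to 216 in the 15 other stroked libraries and at most 0.312 in the 11 non-stroked ones. Gfap, the astrocyte filament gene, was at 928, 267 and 189 CPM in the same 3 acute mice, against 765 to 1694 in the other stroked libraries and 102 to 304 in the non-stroked ones. Acute mice 5m_1 and 1_5 therefore stood apart from the other stroked mice, and the comparisons that use them are also given without them. For these 2 mice, and for no other library, the mouse number in the title differs from that in the name of the deposited count table. Their groups were taken from the labels. Delayed mouse 5_5 shares the first number of its name with untreated mice 5_2 and 5_3, and was kept in the delayed group that its label gives. All 6 neuronal markers of the list used here had counts in every group. The T cell transcript Cd3e was at 0 to 28 counts per library, while Cd4, which is not confined to T cells, was at 49 to 1149 counts. Library sizes were corrected by TMM. In bulk tissue, fewer cells of a type and less RNA per cell cannot be told apart.

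Rcan1 has 2 starts in the RefSeq promoter table (build GRCm38.p6), and the 250 bases before each are shown because only the inner one, which makes the shorter transcript, is the known NFAT-responsive start. Capitals mark the NFAT core letters GGAAA on the strand shown or TTTCC where the core lies on the other strand.
Rcan1, outer start, chr16:92466170-92466419, minus strand: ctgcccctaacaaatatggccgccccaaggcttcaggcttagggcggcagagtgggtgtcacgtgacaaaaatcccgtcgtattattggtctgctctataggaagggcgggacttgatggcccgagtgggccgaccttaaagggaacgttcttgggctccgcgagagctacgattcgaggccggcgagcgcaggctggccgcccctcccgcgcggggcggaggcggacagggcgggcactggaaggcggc
Rcan1, inner start, chr16:92400079-92400328, minus strand: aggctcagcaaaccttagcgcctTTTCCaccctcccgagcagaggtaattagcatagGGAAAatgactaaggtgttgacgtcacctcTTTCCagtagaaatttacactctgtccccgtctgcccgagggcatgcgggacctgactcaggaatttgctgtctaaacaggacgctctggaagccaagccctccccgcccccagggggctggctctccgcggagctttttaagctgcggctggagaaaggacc
The inner window held 3 copies of the core and the outer window held 0. Of all 32851 windows of that length in the table, 55.6% held at least 1 copy and 6.39% held at least 3, so the core is common and a match is a description of letters only. Windows of other members held 3 copies at Ppp3cb, at Nfatc4 and at the first of 2 Nfatc2 starts, 2 at Fkbp1a, 1 at the first Nfatc3 start and 0 at Ppp3r1. Of 3 Rcan2 starts the first held 2 copies and the others 0, and the second starts of Nfatc2 and Nfatc3 held 1 and 0. Ppp3ca and Nfatc1 had no entry. The counts are per gene, so reads from the 2 Rcan1 starts could not be told apart and the values below sum over both.

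The members spanned a wide range of levels. Set per kilobase of exon (GENCODE M21), which is needed to compare genes with each other, the mean over 29 libraries was highest for Ppp3r1 with 194 CPM per kb. Ppp3ca with 134 and Fkbp1a with 129 CPM per kb followed, and the ranges of this pair overlapped (92.6 to 186 and 80.3 to 223). Rcan2 with 56.5, Ppp3cb with 28.99 and Rcan1 with 16.8 CPM per kb came next, and the lowest Rcan2 library with 38.5 was above the highest Ppp3cb library with 36.6. The NFAT genes were far lower. Nfatc2 with 1.57, Nfatc3 with 1.39 and Nfatc1 with 1.36 CPM per kb overlapped one another, and Nfatc4 was lowest with 0.477 CPM per kb, from 34 to 182 counts per library. Ppp3r1 shares 185 bases of exon on the same strand with Wdr92, so part of its reads may have been assigned elsewhere. In GRCm38 (GENCODE M21), Fkbp1a (ENSMUSG00000032966) lies on chromosome 2, 151542483 to 151561692, Rcan1 (ENSMUSG00000022951) lies on chromosome 16, 92391953 to 92470867, and Nfatc4 (ENSMUSG00000023411) lies on chromosome 14, 55823144 to 55833943. The widest range among libraries, in CPM, was that of Nfatc4, whose highest library was 6.51 times its lowest, and the narrowest was that of Ppp3cb with 1.496 times.

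The catalytic subunits kept a similar mix in every group. Among Ppp3ca, Ppp3cb and Ppp3cc, the third catalytic gene, Ppp3ca made up 79.8% ± 0.844 (SD, n = 4) of the summed CPM per kb in non-stroked WT and 77.9% ± 2.43 (SD, n = 4) in untreated stroked WT mice. It made up 77.6% ± 1.25 (SD, n = 3) after acute and 76.3% ± 2.21 (SD, n = 5) after delayed tacrolimus. The lowest mean of Ppp3ca was that of the delayed group and the highest, 82.0% ± 1.39 (SD, n = 3), that of stroked NSG mice. The share of Nfatc4 among the 4 NFAT genes was 5.89% ± 0.916 (SD, n = 4) in non-stroked WT, 9.79% ± 3.18 (SD, n = 4) in untreated stroked WT, 7.99% ± 1.51 (SD, n = 3) in acute and 13.7% ± 3.36 (SD, n = 5) in delayed mice.

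**Figure D1:**
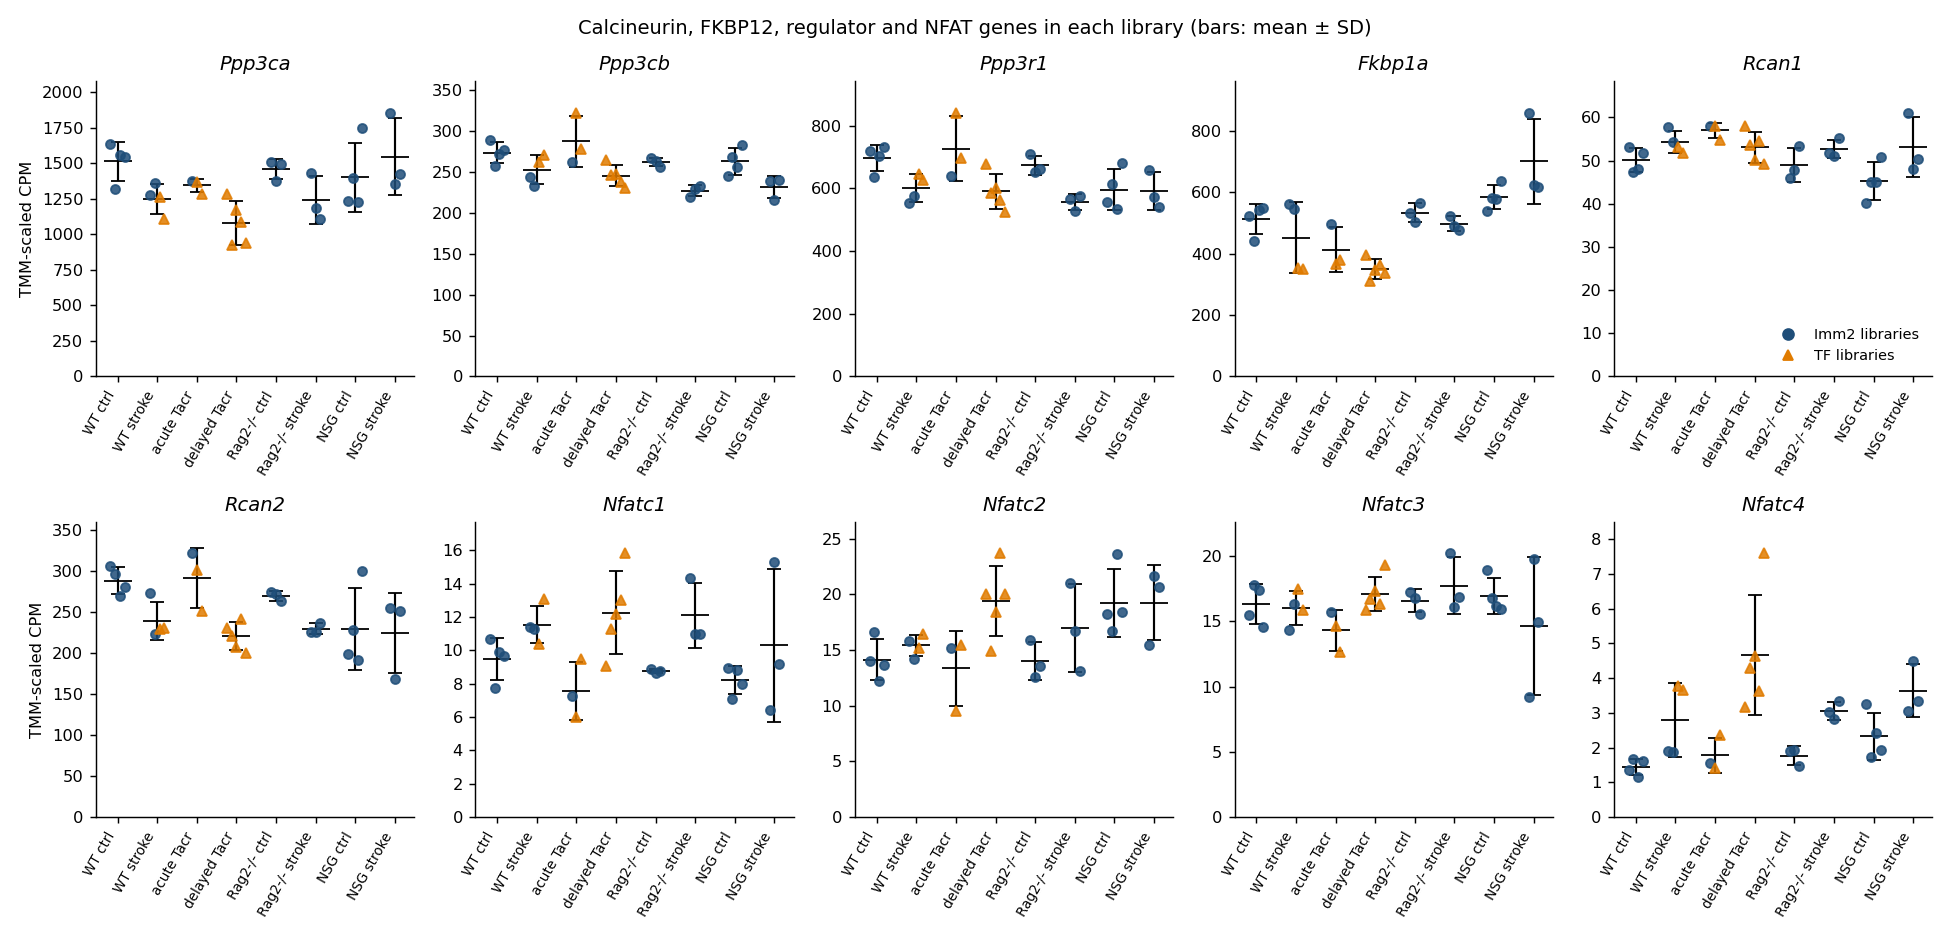
TMM-scaled CPM (vertical axes, from 0) of the 10 genes in each of the 29 libraries, by group, with circles for Imm2 and triangles for TF libraries and bars for the mean ± SD of a group. Every TF library lies below every Imm2 library for Fkbp1a, and Nfatc4 is highest in the delayed mice.

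The acute comparison asks whether the targets of tacrolimus differ in transcript level between treated and untreated stroked mice at 21 dpi. At an adjusted p below 0.05 (edgeR quasi-likelihood test, Benjamini-Hochberg over 17031 genes), 0 of 10 members differed between acute and untreated mice, and 0% of all genes did. At an unadjusted p below 0.05 there were 5 members, against 12.7% of all genes, and the Wald test of DESeq2 also called 0 members. The median log2 fold change of the members was -0.029, against 0.012 over all genes. Fkbp1a, the tacrolimus-binding partner, was at 496 CPM in acute mouse 5m_1, 365 in mouse 1_5 and 378 in mouse 2_1, against 560, 544, 353 and 350 in untreated mice 2m_3, 2m_5, 5_2 and 5_3. The high values of both groups were those of the Imm2 mice, and the groups overlapped. The log2 fold change was -0.13 ± 0.15 (SE, adjusted p = 0.763, edgeR), and within TF libraries alone it was 0.05 ± 0.11 (adjusted p = 0.822, edgeR).

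The 3 calcineurin subunit genes had positive estimates after acute tacrolimus. Ppp3r1 was at 639, 842 and 698 CPM in acute mice 5m_1, 1_5 and 2_1, against 555, 576, 647 and 627 in untreated mice 2m_3, 2m_5, 5_2 and 5_3. Acute mouse 1_5 was the highest of all 29 libraries for Ppp3r1, and mouse 5m_1 lay inside the untreated range. Its log2 fold change was 0.27 ± 0.10 (SE, adjusted p = 0.311, edgeR). Ppp3cb had a log2 fold change of 0.19 ± 0.08 (adjusted p = 0.330) and Ppp3ca one of 0.10 ± 0.13 (adjusted p = 0.790), neither past the threshold. Rcan2, at 321, 301 and 251 CPM in the acute mice and 273, 222, 229 and 230 in the untreated mice, had a log2 fold change of 0.29 ± 0.13 (adjusted p = 0.373). Rcan1 had 58.1, 58.0 and 54.9 CPM in acute and 57.8, 54.3, 53.2 and 51.7 CPM in untreated mice and a log2 fold change of 0.07 ± 0.09 (adjusted p = 0.769). The acute and untreated ranges of Rcan1 overlapped. With mouse 2_1 as the only acute sample, the log2 fold changes were 0.22 for Ppp3r1, 0.14 for Ppp3cb, 0.07 for Rcan2 and -0.26 for Fkbp1a, and 0 members passed.

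All 4 NFAT genes had negative estimates after acute tacrolimus in the fit of all libraries, though within Imm2 alone those of Nfatc2 (0.02) and Nfatc3 (0.04) were not negative. Nfatc1, the NFAT gene known for its induction in activated T cells and in valve and bone cells, was at 7.25, 5.99 and 9.46 CPM in acute mice 5m_1, 1_5 and 2_1. In the untreated mice it was at 11.4, 11.3, 10.4 and 13.1 CPM, so every acute mouse was lower than every untreated mouse. The share of all genes without overlap was not counted, and Nfatc1 was the only member without overlap in this comparison. Its log2 fold change was -0.61 ± 0.21 (SE, adjusted p = 0.311, edgeR), -0.63 ± 0.28 within TF alone (adjusted p = 0.446) and -0.64 within Imm2 alone, where 1 acute mouse was set against 2 untreated mice. Nfatc1 passed the threshold only when mouse 2_1 was left out (log2 fold change -0.79, adjusted p = 0.0392, edgeR), a fit in which 8.32% of all genes passed. Mouse 2_1 was the acute mouse with injury markers at the level of other stroked mice. With mouse 2_1 as the only acute sample, assumed to vary like the other groups, the log2 fold change of Nfatc1 was -0.29. Nfatc4 was at 1.56, 1.42 and 2.36 CPM in the acute mice and 1.89, 1.86, 3.78 and 3.67 CPM in the untreated mice, with the Imm2 mice low in the untreated group and a log2 fold change of -0.65 ± 0.30 (adjusted p = 0.369). The estimates of Nfatc2 (-0.20 ± 0.18) and Nfatc3 (-0.16 ± 0.15) had adjusted p of 0.659 and 0.706. The part of the low injury markers of mice 5m_1 and 1_5 in these estimates was not tested apart from leaving those mice out.

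**Figure D2:**
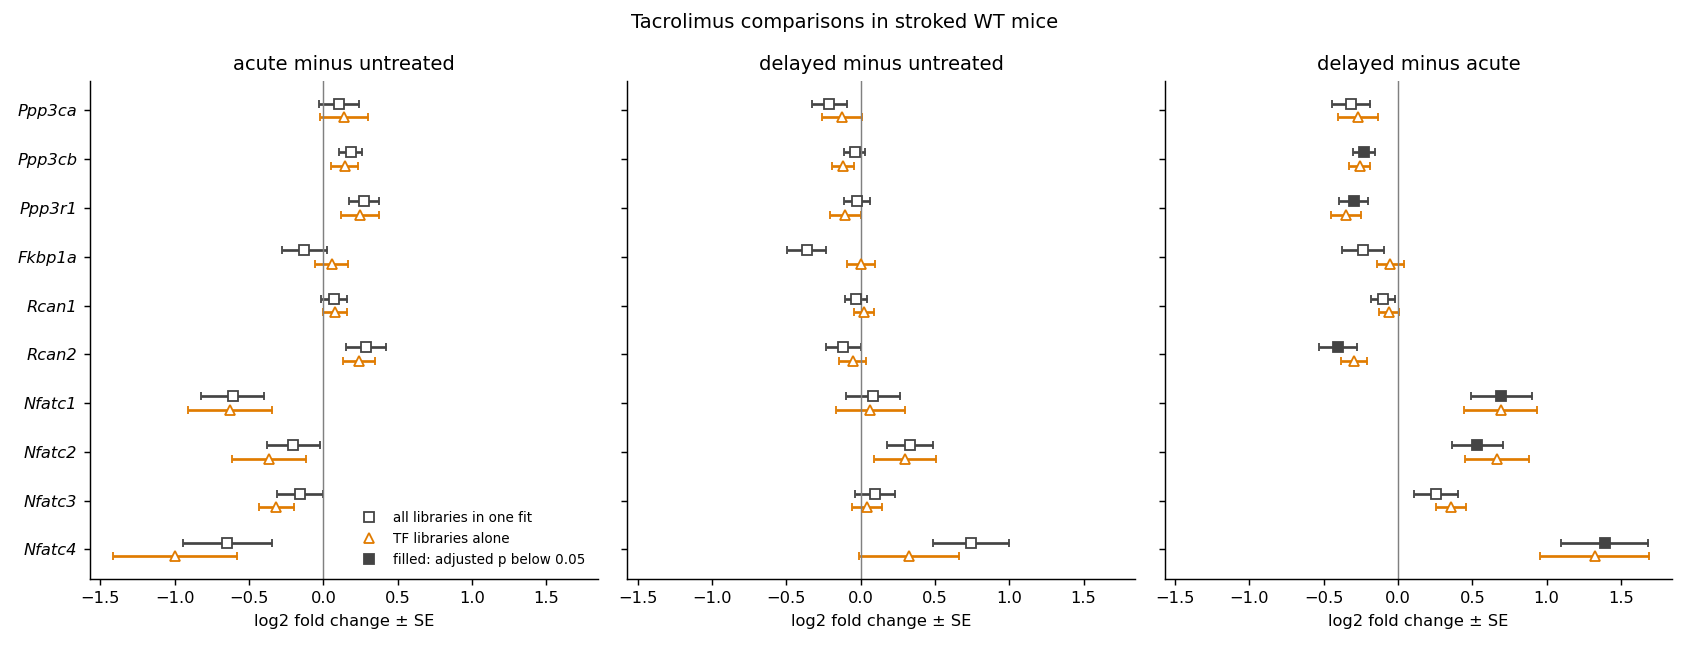
Log2 fold change ± SE (horizontal axes) of each member in the acute against untreated, delayed against untreated and delayed against acute comparisons, from 1 fit of all libraries (squares) and from TF libraries alone (triangles), with filled symbols at an adjusted p below 0.05. The 6 filled symbols are all in the delayed against acute panel of the fit of all libraries, and the Fkbp1a estimate for delayed against untreated mice moves from -0.36 to 0.003 in TF alone.

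The delayed comparison sets mice that began tacrolimus a week after stroke against the same untreated mice, so it shares its controls with the acute comparison. Of the members, 0 of 10 passed the threshold, 3 had an unadjusted p below 0.05, and DESeq2 called 0 members. Over all genes, 0% passed and 20.3% had an unadjusted p below 0.05. The median log2 fold change was -0.029 for the members and 0.007 for all genes.

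Fkbp1a was at 397, 310, 347, 364 and 337 CPM in delayed mice 3_3, 3_4, 3_5, 4_3 and 5_5. These lay around the 2 TF untreated mice (353 and 350) and below the 2 Imm2 untreated mice (560 and 544). The log2 fold change was -0.36 ± 0.13 (SE, adjusted p = 0.162, edgeR) over all libraries and 0.003 ± 0.093 within TF (adjusted p = 0.9998). Without untreated mouse 5_3, a TF library, the pooled value was -0.47 with an adjusted p of 0.0396 (edgeR), and 6.18% of all genes passed. Across the whole series Fkbp1a separated the name series: it was at 310 to 397 CPM in the 9 TF libraries and at 441 to 859 CPM in the 20 Imm2 libraries, with no overlap.

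The calcineurin genes showed small estimates with delayed treatment. Ppp3ca was at 1283, 924, 1169, 1087 and 940 CPM in the delayed mice and at 1274, 1361, 1260 and 1108 CPM in the untreated mice, and the groups overlapped (log2 fold change -0.21 ± 0.12, adjusted p = 0.302). Ppp3cb (-0.04 ± 0.07, adjusted p = 0.742), Ppp3r1 (-0.03 ± 0.09, adjusted p = 0.889), Rcan1 (-0.03 ± 0.07, adjusted p = 0.826) and Rcan2 (-0.12 ± 0.12, adjusted p = 0.572) all had estimates no larger than their SE. Rcan1 was at 57.9, 53.6, 50.1, 54.6 and 49.1 CPM in the delayed mice, spanning the untreated range at both ends.

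Nfatc4, an NFAT gene known from muscle and neurons, had the largest estimate of the members in this comparison. It was at 3.18, 4.28, 4.63, 3.62 and 7.59 CPM in delayed mice 3_3, 3_4, 3_5, 4_3 and 5_5. The TF untreated mice, at 3.78 and 3.67 CPM, lay inside this range, and the Imm2 untreated mice, at 1.89 and 1.86 CPM, lay below it. Its log2 fold change was 0.74 ± 0.25 (SE, adjusted p = 0.155, edgeR) over all libraries and 0.33 ± 0.34 within TF (adjusted p = 0.9998). Nfatc2 was at 20.03, 14.9, 18.4, 23.7 and 20.04 CPM in the delayed and 15.8, 14.2, 15.2 and 16.5 CPM in the untreated mice, with 4 of 5 delayed mice above all untreated ones (log2 fold change 0.33 ± 0.15, adjusted p = 0.235). Nfatc1 (0.08 ± 0.18, adjusted p = 0.808) and Nfatc3 (0.10 ± 0.14, adjusted p = 0.696) did not pass.

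Set directly against each other, the delayed and acute mice differed in 6 of 10 members at an adjusted p below 0.05, where 20.3% of all genes did. Nfatc1, Nfatc2 and Nfatc4 were higher and Ppp3cb, Ppp3r1 and Rcan2 lower in delayed mice, and 7 members had an unadjusted p below 0.05 against 35.2% of all genes. Nfatc4 had means of 4.66 ± 1.73 CPM (SD, n = 5) and 1.78 ± 0.507 CPM (SD, n = 3) in delayed and acute mice, and the lowest delayed mouse (3.18) was above the highest acute one (2.36). Its log2 fold change was 1.39 ± 0.29 (SE, adjusted p = 0.0102, edgeR). Nfatc1 rose by 0.69 ± 0.21 (adjusted p = 0.0214) and Nfatc2 by 0.53 ± 0.17 (adjusted p = 0.0308) on the log2 scale, and both groups overlapped for each gene. Nfatc3 had a log2 fold change of 0.25 ± 0.15 (adjusted p = 0.227), although each delayed mouse (15.9 to 19.3 CPM) was above each acute mouse (12.6 to 15.7 CPM).

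On the side of the enzyme, Rcan2 fell by 0.40 ± 0.13 on the log2 scale (adjusted p = 0.0279, edgeR). It was at 231, 220, 208, 242 and 199 CPM in the delayed mice and at 321, 301 and 251 CPM in the acute mice, without overlap. Ppp3r1 had a log2 fold change of -0.30 ± 0.10 (adjusted p = 0.0324) and Ppp3cb one of -0.23 ± 0.07 (adjusted p = 0.0318). Ppp3r1 was at 677, 585, 602, 564 and 525 CPM in the delayed mice, and the highest of them overlapped with the acute range of 639 to 842 CPM. Ppp3ca, whose groups did not overlap (924 to 1283 against 1288 to 1374 CPM), had a log2 fold change of -0.31 ± 0.13 and missed the threshold (adjusted p = 0.0764). Fkbp1a (-0.24 ± 0.14, adjusted p = 0.244) and Rcan1 (-0.10 ± 0.08, adjusted p = 0.380) did not pass.

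The 6 calls were lost when acute mouse 5m_1 or 1_5, the pair with low injury markers, was left out. In each case 0 members and 0% of all genes passed, and without mouse 2_1 there were 6 members and 33.6% of all genes. The log2 fold change of Nfatc4 was 1.29 without mouse 5m_1 and 1.25 without mouse 1_5, that of Nfatc1 0.65 and 0.55, and that of Ppp3r1 -0.39 and -0.19. Each of these fits held 2 acute mice. With mouse 2_1 as the only acute sample, 0 members passed and the log2 fold changes were 0.97 for Nfatc4, 0.37 for Nfatc1, -0.19 for Rcan2 and -0.25 for Ppp3r1. Within TF libraries alone, 0 members and 0 of 15984 genes passed, with a log2 fold change of 1.32 ± 0.37 for Nfatc4 and -0.35 ± 0.10 for Ppp3r1 (adjusted p = 0.159 for both, edgeR). There Nfatc1 had a log2 fold change of 0.69 ± 0.24, Nfatc2 one of 0.66 ± 0.22 and Ppp3cb one of -0.26 ± 0.07. With the name series as a covariate, 3 members passed (Nfatc4, Ppp3r1 and Ppp3cb), beside 9.29% of all genes. Leaving out a single delayed mouse gave 7 members without mouse 3_3, where Ppp3ca also passed (log2 fold change -0.38, adjusted p = 0.0367, edgeR). There were 6 without mouse 3_4, 3 without mouse 3_5, 3 without mouse 4_3 and 1 without mouse 5_5, the delayed mouse with the highest Nfatc4. By the same order of mice, 20.2%, 19.6%, 14.2%, 16% and 8.74% of all genes passed.

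Markers of other cells moved with the same contrast. Between delayed and acute mice, 5 of 6 neuronal and 5 of 5 cortical neuron markers were lower, and 6 of 7 markers of microglia and macrophages and 4 of 4 of fibroblasts were higher. The summed level of the fibroblast markers (Col1a1, Col1a2, Dcn and Lum) was 55.3, 29.1 and 309 CPM in acute mice 5m_1, 1_5 and 2_1 and 288 to 1208 CPM in the delayed mice, and none of these markers was at 0 in either group. The summed cortical neuron markers were 623, 472 and 288 CPM in the acute and 182 to 300 CPM in the delayed mice, again with no marker at 0. Acute mouse 2_1 lay nearest to the delayed mice on both sums. Delayed mouse 5_5 had both the highest fibroblast sum (1208 CPM) and the highest Nfatc4 (7.59 CPM) of the 29 libraries. The choroid plexus sum was 604, 12.3, 850, 835 and 808 CPM in the delayed mice and 4.54 to 18.3 CPM in the acute mice. Over the other lists, 2 of 5 astrocyte, 1 of 2 tested B cell and 1 of 3 tested midbrain dopamine neuron markers were higher, and 0 passed among the markers of oligodendrocytes, endothelium, striatal neurons and T cells. The part of these cell markers in the differences of the members was not tested.

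**Figure D3:**
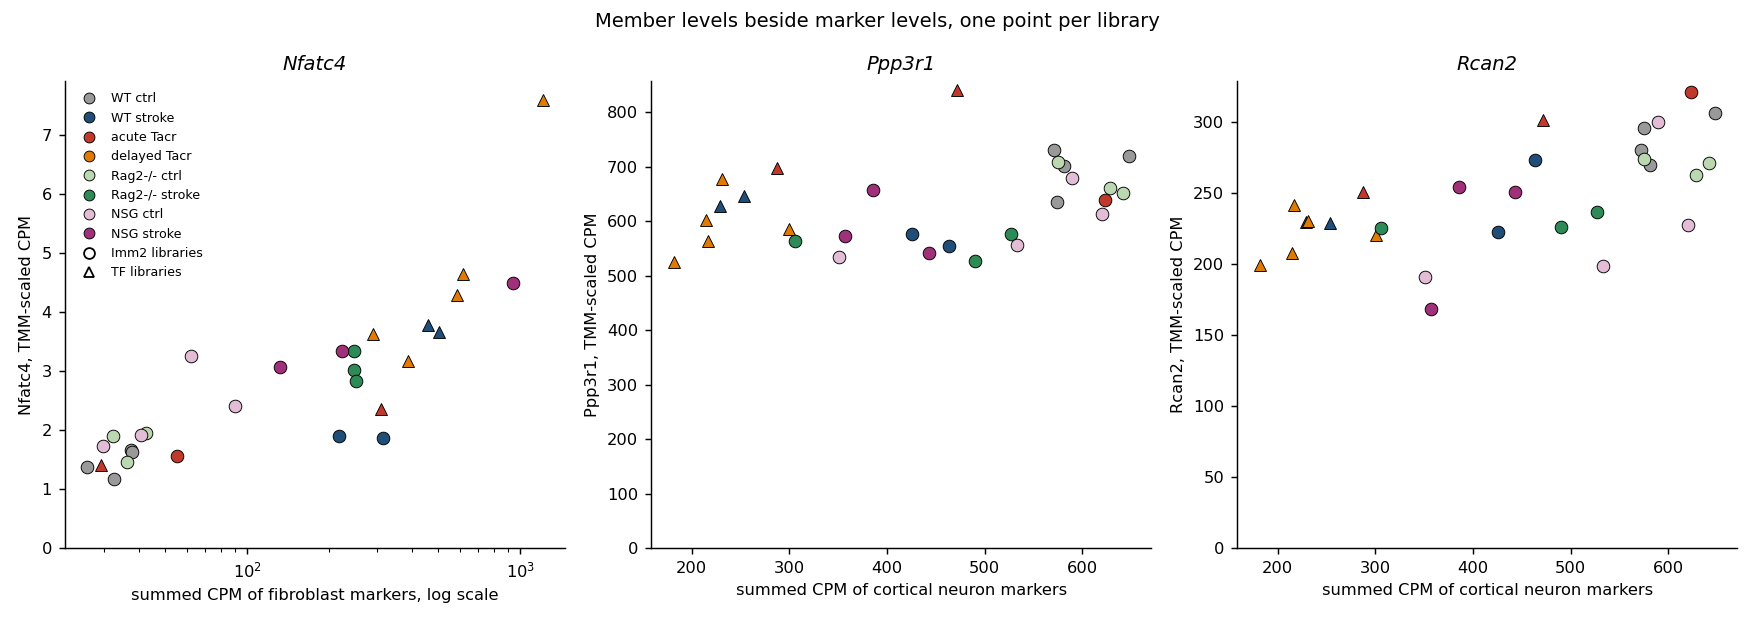
Level of Nfatc4 beside the summed fibroblast markers (log axis) and of Ppp3r1 and Rcan2 beside the summed cortical neuron markers, in TMM-scaled CPM with 1 point per library, coloured by group and shaped by name series. Acute mice 5m_1 and 1_5 sit with the non-stroked mice on the fibroblast axis (55.3 and 29.1), and the delayed mice are at 288 to 1208.

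The stroke comparison within each strain asks how the genes respond to injury with no drug given. In WT mice 1 of 10 members was called and 26.9% of all genes were. Nfatc4 was that member, at 1.89, 1.86, 3.78 and 3.67 CPM in stroked mice 2m_3, 2m_5, 5_2 and 5_3 and at 1.37, 1.66, 1.17 and 1.62 CPM in non-stroked mice 1Wt, 3Wt, 4Wt and 5Wt. All stroked mice were above all non-stroked ones, the TF mice by far the most. Its log2 fold change was 0.93 ± 0.27 (SE, adjusted p = 0.0144, edgeR). Within Imm2 alone, the only series with non-stroked mice, it was 0.37 (adjusted p = 0.396), and for the 2 TF stroked mice against the Imm2 non-stroked mice it was 1.36 ± 0.28 (adjusted p = 0.000571). Without stroked mouse 5_2 it was 0.76 (adjusted p = 0.0658) and without mouse 5_3 it was 0.77 (adjusted p = 0.0720), so leaving out either ended the call. With the name series as a covariate the call was also lost (0.51 ± 0.28, adjusted p = 0.242).

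Nfatc4 had estimates of the same sign in the other strains. In Rag2-/- mice it was at 3.01, 2.83 and 3.34 CPM with stroke and 1.90, 1.95 and 1.46 CPM without, and the groups did not overlap (log2 fold change 0.79 ± 0.31, adjusted p = 0.127, edgeR). In NSG mice it was at 3.06, 4.50 and 3.34 CPM with stroke and 3.25, 1.73, 2.41 and 1.92 CPM without (log2 fold change 0.64 ± 0.28, adjusted p = 0.101). All of these libraries were Imm2. Fibroblast markers moved with stroke in each strain, with 4 of 4 higher and sums of 216 to 504 CPM against 26.0 to 38.0 CPM in WT, 245 to 250 against 32.2 to 42.5 CPM for Rag2-/- mice, then 131 to 939 against 29.7 to 90.3 CPM for NSG mice. Markers of microglia and macrophages were higher for 6 of 7 genes in WT mice, 4 of 7 in Rag2-/- mice and 6 of 7 in NSG mice. Of 5 astrocyte markers 5, 3 and 3 were higher, by the same order of strains. Of 5 tested T cell markers, 4 were higher with stroke in WT mice (Cd3e, Cd3g, Cd8a and Cd2) and 0 in the other strains. Sums over the list were 7.31 to 22.3 CPM against 3.53 to 9.71 CPM in WT mice. Most counts of the list were Cd4, with 228 to 687 per library in stroked WT mice against 5 to 28 for Cd3e. The sum reached 35.5 CPM in non-stroked NSG mice, where Cd3d, Cd3e, Cd3g and Cd8a were at 0. That library, mouse 4NSG, also had the highest summed striatal markers of the series (1539 CPM). Stroked NSG mouse 1f_2 was lowest on both sums (1.46 CPM for T cell and 65.3 CPM for striatal markers). The part of striatal tissue in the T cell sum was not tested. The part of these cell markers in the Nfatc4 values was not tested.

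In Rag2-/- mice 0 of 10 members and 8.23% of all genes were called with stroke by edgeR. At an unadjusted p below 0.05 there were 4 members, against 21.7% of all genes. DESeq2 called 1 member, Ppp3cb, and 10.8% of all genes. Ppp3cb was at 220, 229 and 233 CPM with stroke and 267, 263 and 256 CPM without, with no overlap (log2 fold change -0.21 ± 0.08, adjusted p = 0.129). Ppp3r1 was at 565, 528 and 576 CPM with stroke and 708, 652 and 661 CPM without, again with no overlap (log2 fold change -0.28 ± 0.11, adjusted p = 0.127). Rcan2 (225 to 237 against 263 to 274 CPM) and Nfatc1 (10.97 to 14.3 against 8.63 to 8.89 CPM) did not overlap either, with adjusted p of 0.371 and 0.220. The share of all genes without overlap between these small groups was not counted. Fitted on the 6 Rag2-/- libraries alone, 3 members and 15.3% of all genes passed, Ppp3r1 with a log2 fold change of -0.27, Nfatc1 with 0.47 and Nfatc4 with 0.80.

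In NSG mice 0 of 10 members and 21.9% of all genes were called with stroke by edgeR. There were 3 members at an unadjusted p below 0.05, against 35.9% of all genes. DESeq2 called 2 members, Ppp3cb and Rcan1, and 25% of all genes. Rcan1 came nearest, at 61.1, 48.1 and 50.4 CPM with stroke and 40.1, 45.1, 45.0 and 51.0 CPM without, with mouse 1f_1 above all others and the rest overlapping (log2 fold change 0.23 ± 0.08, adjusted p = 0.0503). Ppp3cb was at 239, 215 and 241 CPM with stroke and 244, 268, 256 and 282 CPM without (log2 fold change -0.18 ± 0.08, adjusted p = 0.0901). Mouse 1f_1 also had the highest Fkbp1a (859 CPM) and Ppp3ca (1857 CPM) and the lowest Nfatc3 (9.21 CPM) of the 29 libraries. Without stroked mouse 1f_2, Rcan1 (0.29, adjusted p = 0.0273) and Nfatc3 (-0.50, adjusted p = 0.0156) passed, without non-stroked mouse 4NSG, Rcan1 did (0.29, adjusted p = 0.0221), and without non-stroked mouse 1NSG, Nfatc4 did (0.85, adjusted p = 0.0479). In the other strains, Rcan1 had positive estimates of 0.11 ± 0.08 in WT and 0.10 ± 0.09 in Rag2-/- mice (adjusted p = 0.291 and 0.569).

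For the calcineurin subunits in WT mice, Ppp3ca had a log2 fold change of -0.28 ± 0.12 (adjusted p = 0.0976, edgeR) and Ppp3r1 one of -0.21 ± 0.09 (adjusted p = 0.0940, edgeR). Ppp3ca was at 1274, 1361, 1260 and 1108 CPM with stroke and 1639, 1319, 1556 and 1541 CPM without, and the groups overlapped through stroked mouse 2m_5 and non-stroked mouse 3Wt. Ppp3r1 was at 555 to 647 CPM with stroke and 636 to 731 CPM without. Neuronal markers moved with the same contrast, 3 of 6 general and 3 of 5 cortical ones being lower and 0 higher. Their sums were 7923 to 12227 against 11329 to 12942 CPM for the general list and 230 to 463 against 572 to 648 CPM for the cortical one, and no marker was at 0 throughout a group. Their part in the subunit values was not tested. With the name series as a covariate Ppp3r1 passed (log2 fold change -0.32, adjusted p = 0.0310). Fkbp1a was at 560 and 544 CPM in the Imm2 stroked mice, inside or near the non-stroked range of 441 to 548 CPM, and at 353 and 350 CPM in the TF stroked mice. Its log2 fold change was -0.18 ± 0.14 over all libraries and 0.11 within Imm2, with opposite signs (adjusted p = 0.336 and 0.612).

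**Figure D4:**
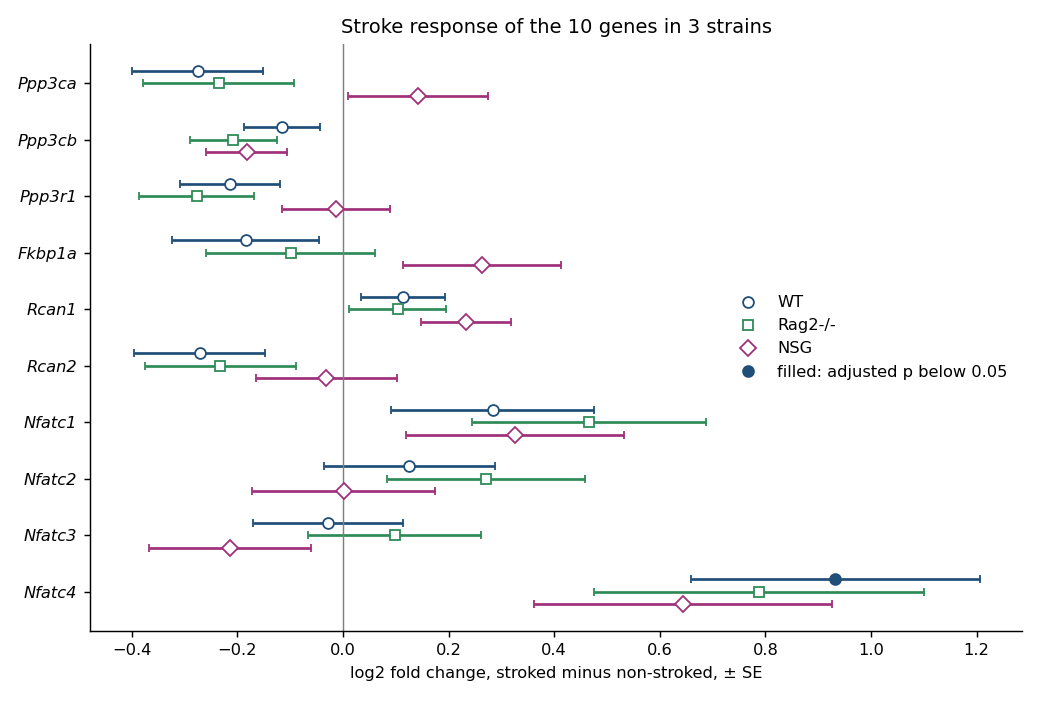
Log2 fold change ± SE (horizontal axis) of stroked minus non-stroked mice for the 10 members in WT (circles), Rag2-/- (squares) and NSG mice (diamonds), filled at an adjusted p below 0.05. Nfatc4 has the largest estimate in each strain (0.93, 0.79 and 0.64), and only that of WT mice is filled.

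Tested as a difference of differences, the stroke response of NSG mice differed from that of WT mice in 0 of 10 members by edgeR. The share of all genes was 0.0294%, and DESeq2 called 0 members. At an unadjusted p below 0.05 there were 2 members, against 12.7% of all genes. These were Fkbp1a (0.45 ± 0.20, adjusted p = 0.364) and Ppp3ca (0.42 ± 0.18, adjusted p = 0.341), both relatively higher with stroke in NSG mice. Within Imm2 alone the values were 0.14 and 0.32. The response of Rag2-/- mice differed from that of WT mice in 0 of 10 members and 0% of all genes by edgeR. There were 0 members at an unadjusted p below 0.05 and 0 by DESeq2. The estimates ran from -0.14 for Nfatc4 to 0.18 for Nfatc1. All Rag2-/- libraries were Imm2, while the untreated stroked WT mice were in both series. Under the alternatives, Imm2 alone among them, the estimate of Nfatc4 ran from -0.30 to 0.43 and that of Fkbp1a from -0.20 to 0.21.

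Without stroke, 0 of 10 members and 9.76% of all genes differed between NSG and WT mice by edgeR. At an unadjusted p below 0.05 there were 4 members, against 22.9% of all genes. DESeq2 called 0 members and 12% of all genes. Nfatc2, an NFAT gene of T cells that is also expressed in brain, was at 18.2, 16.7, 23.6 and 18.4 CPM in NSG and 14.01, 16.6, 12.2 and 13.7 CPM in WT mice, with every NSG mouse above every WT mouse by a narrow gap (log2 fold change 0.45 ± 0.16, adjusted p = 0.0839). Rcan2 was at 199, 228, 191 and 300 CPM in NSG and 306, 296, 269 and 280 CPM in WT mice (log2 fold change -0.33 ± 0.12, adjusted p = 0.0995). Mouse 4NSG was the only NSG mouse inside the WT range of Rcan2, and without it Rcan2 passed (-0.48, adjusted p = 0.00805). Nfatc4 did not overlap either, with 1.73 to 3.25 CPM in NSG and 1.17 to 1.66 CPM in WT mice (log2 fold change 0.68 ± 0.27, adjusted p = 0.127), and Ppp3r1 had a log2 fold change of -0.23 ± 0.09 (adjusted p = 0.142). Between Rag2-/- and WT mice without stroke, 0 of 10 members and 0.00587% of all genes differed by edgeR, with 0 members at an unadjusted p below 0.05 and 0 by DESeq2, and the log2 fold changes ran from -0.12 for Nfatc1 to 0.28 for Nfatc4.

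The name series itself was compared as a coefficient estimated from the stroked WT and acute mice, the groups present in both. It separated 2 of 10 members and 27.6% of all genes. Fkbp1a was lower in TF by 0.56 on the log2 scale (estimate -0.56 ± 0.10, SE, adjusted p = 0.000335, edgeR) and Nfatc4 was higher by 0.71 ± 0.27 (adjusted p = 0.0478). Ppp3cb (0.18 ± 0.07, adjusted p = 0.0505) and Ppp3r1 (0.21 ± 0.09, adjusted p = 0.0951) had positive estimates, and Rcan1 (-0.07 ± 0.08, adjusted p = 0.545) and the other NFAT genes did not pass. In the 2 against 2 untreated stroked mice, Fkbp1a had a difference of -0.66 ± 0.13 (adjusted p = 0.00197, edgeR), and Nfatc4 did not pass (0.97 ± 0.33, adjusted p = 0.0505). The untreated TF mice also had lower summed cortical neuron markers (253 and 230 CPM, against 463 and 426 CPM in Imm2) and higher summed striatal markers (782 and 731, against 443 and 264 CPM). What sets the series apart is not stated in the labels, and its effect and that of delayed treatment cannot be told apart outside the 4 untreated stroked mice and the acute mice that bridge them.

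The wider pathway was read from 8 lists of 67 genes, of which 60 were tested. In the acute and delayed comparisons with untreated mice, 0 of 60 passed by edgeR and 0 by DESeq2. The smallest p-values in the acute comparison were those of Fkbp10, a collagen-folding enzyme of the FKBP family (-0.66 ± 0.18), Homer3, a synaptic scaffold that binds NFAT (-1.01 ± 0.28), and Tfeb, a lysosomal regulator dephosphorylated by calcineurin (-0.40 ± 0.15), each with an adjusted p of 0.311. In the delayed comparison they were those of Calm3, a calmodulin gene (-0.58 ± 0.16, adjusted p = 0.150), Stim2, a calcium sensor of the endoplasmic reticulum (-0.39 ± 0.12, adjusted p = 0.154), and Gsk3a, a kinase that rephosphorylates NFAT (-0.49 ± 0.16, adjusted p = 0.154).

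Between delayed and acute mice, 7 of 60 were higher and 11 lower, where 20.3% of all genes differed. Of 12 other FK506-binding proteins 3 were higher, the endoplasmic reticulum members Fkbp7 (0.94 ± 0.24), Fkbp9 (0.56 ± 0.12) and Fkbp10 (0.93 ± 0.17). Of 6 channels and receptors that bind FKBP12, Tgfbr1, a TGF-beta receptor, was higher (0.70 ± 0.18). Of 8 genes of calcium sensing 2 were lower, among them the calmodulin gene Calm3 (-0.56 ± 0.18). Of 8 NFAT kinases and partners, the kinase genes Gsk3a (-0.50 ± 0.17), Dyrk1a (-0.29 ± 0.08) and Dyrk2 (-0.37 ± 0.12) were lower and Homer3 was higher (0.94 ± 0.28). Of 13 calcineurin substrates 4 were lower, among them the transcription factor gene Mef2c (-0.77 ± 0.21) and the dynamin genes Dnm1 (-0.68 ± 0.16) and Dnm1l (-0.23 ± 0.06), and Tfeb was higher (0.57 ± 0.15). Of 5 regulators and anchors tested, the calcium buffer gene Pvalb was lower (-1.03 ± 0.32), and of 2 further subunits 0 passed. The neuronal and fibroblast markers given above moved in this contrast too, and with mouse 2_1 as the only acute sample 0 of the 60 passed.

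Among 12 lymphocyte targets of NFAT, 6 had too few counts to be tested. The highest count in any of the 29 libraries was 4 for Il2, 2 for Il4, 2 for Ifng, 1 for Csf2, 2 for Cd40lg and 9 for Fasl. Of the 6 tested, Tnf, an inflammatory cytokine, was higher in delayed than acute mice (1.94 ± 0.63, from 5 to 17 against 1 to 6 counts per library), and Egr3, an immediate early gene also used by neurons, was lower (-0.66 ± 0.18). The 6 targets with too few counts were thus not measurable at this depth in this tissue.

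With stroke, 5 of 12 other FK506-binding proteins were higher and 1 lower in WT mice, where 26.9% of all genes were called, and 5 of 12 were higher in each of the immunodeficient strains, where 8.23% (Rag2-/-) and 21.9% (NSG) were. Over all 60 pathway genes, 9 were higher and 14 lower in WT mice. The counts were 6 and 2 for Rag2-/- mice, then 10 and 7 for NSG mice. Fkbp5, a stress hormone-responsive co-chaperone, rose from 27.5 ± 5.18 to 73.1 ± 8.26 CPM (SD, n = 4 each) in WT mice, or by 1.41 ± 0.16 on the log2 scale (adjusted p = 6.17e-06, edgeR). In Rag2-/- mice Fkbp5 rose by 1.46 ± 0.19 (adjusted p = 6.8e-05). Fkbp10 rose by 1.10 ± 0.16 in the WT comparison, by 1.02 ± 0.19 in that of Rag2-/- mice and by 0.97 ± 0.17 in that of NSG mice. Fkbp7 (1.26 ± 0.24) and Tnf (3.48 ± 0.74) rose in NSG mice, Fkbp9 (0.50 ± 0.13) rose in Rag2-/- mice, and Egr3 (-1.15 ± 0.18) was lower in WT mice. Without stroke, 6 of 60 were lower in NSG than WT mice, where 9.76% of all genes differed. They were led by Egr3 (-1.05 ± 0.18), the co-chaperone Fkbp4 (-0.58 ± 0.10) and Egr2 (-2.03 ± 0.51). Between Rag2-/- and WT mice 0 differed by edgeR or DESeq2. The smallest p-values of that comparison were those of Dnm1l (-0.11 ± 0.07), Tnf (1.59) and Egr3 (-0.29 ± 0.19). In the differences of stroke responses 0 of 60 passed by edgeR for both strains, while DESeq2 called 2 for NSG and 0 for Rag2-/- mice. The smallest p-values there were those of Egr3 (1.19 ± 0.26, adjusted p = 0.0779), Fkbp4 (0.64 ± 0.15) and Fkbp5 (-0.86 ± 0.23) for NSG mice and of Dyrk1a (0.21 ± 0.12), Nfat5 (0.41 ± 0.24) and Dnm1l (0.16 ± 0.10) for Rag2-/- mice.

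The genes most like each member were found by Pearson r of log2 CPM over the 29 libraries, which share groups, name series and tissue content, so r is a description only. Fkbp1a was most like Ppp1r1a (r = 0.977), Praf2 (0.964) and Ptms (0.964). Nfatc4 was most like Enpp1 (0.945), Tbx18 (0.933) and Nid1 (0.925). Nfatc1 was most like Notch2 (0.897), Creb3l2 (0.889) and Myh9 (0.889), Nfatc2 like Srgap1 (0.857), Cacna1h (0.836) and Lamb1 (0.835), and Nfatc3 like Soga1 (0.856), Sp1 (0.846) and Gm49599 (0.837). Ppp3cb was most like Nptn (0.926), with Pafah1b1 (0.886) also among its nearest genes. Ppp3ca was most like Cycs (0.866), Pfn2 (0.864) and Ppp1r21 (0.861), and Ppp3r1 like Rhot1 (0.861), Brms1l (0.860) and Spcs3 (0.856). Rcan1 was most like Snw1 (0.863), Tomm22 (0.851) and Txndc15 (0.836), and Rcan2 like Abcf2 (0.863), Pank2 (0.861) and Gm37711 (0.855).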

How the data were processed

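RNA of 29 mouse brain samples in 8 groups was sequenced by the authors from polyA-selected libraries, and the deposited files hold whole-number counts per Ensembl gene, which the authors made from their reads and did not normalize. The aligner, genome build and use of strand in counting are not given in the sources used here. Libraries held 17789044 to 43403413 counts, and the low counts of Nfatc4 (34 to 182 per library) limit its precision most. Groups and replicates came from the labels, and the name series (Imm2 or TF) from the sample titles. Where nothing states separate cultures or animals beyond the labels, p-values measure only the spread between these samples. No pair of libraries of the same group agreed within sampling noise (lowest chi-square per gene 7.96), and pairs across groups were not compared.

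Gene names and exon lengths were taken from GENCODE M21 (GRCm38), which named 25635 of 25746 identifiers. Counts were filtered with filterByExpr, scaled by TMM and fitted in 1 model of the 8 groups with the quasi-likelihood test of edgeR 4.0.16 (R 4.3.3), adjusted by Benjamini-Hochberg over 17031 genes, and called at an adjusted p below 0.05 with no minimum fold change. Correlations were computed on log2 CPM (prior count 2). DESeq2 1.42.0, other scalings and filters, fits of fewer samples, the name series as a covariate, a replicate block and leaving out each library were alternatives. Fits by name series beyond those planned and the fit with mouse 2_1 as the only acute sample were chosen after seeing the data. All 10 members are named, with pathway genes called in a tacrolimus comparison, the 3 of smallest p in each other comparison, and the 3 genes most correlated with each member. Genes named outside this rule are markers. Overlap of groups was read for the members only, so in every comparison the share of all genes without overlap is not known. A few genes that the rule names are not reported here. The members and lists were chosen with earlier results of these data known. On simulated acute and untreated counts (16534 genes), the test recovered 33 of 100 genes changed by 0.5 on the log2 scale. It recovered 82 of 100 changed by 1, with 5 false calls. A comparison with no gene changed gave 1 call. How far these rates hold for single members, such as Nfatc4 with its SE of 0.30 in the acute comparison, was not tested. Ppp3r1 overlaps exons of Wdr92 by up to 185 bases on the same strand and Nfatc3 those of Esrp2 by 219 bases on the opposite strand, and Esrp2 had 87 counts over all libraries. Promoter sequences are from RefSeq, 250 bases before each start. Tables were made with Python 3.11.15.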

Additional observations from a re-analysis of the deposited data

Results flagged for a closer look

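Rcan2 in untreated stroked WT mouse 2m_3 was at 273 CPM, against 222 to 230 CPM in the other 3 mice of its group. Its gap to the nearest mouse was 0.856 of the range of the group, above the critical Dixon value for 4 samples. Of 40 combinations of member and group tested in this way 1 was found, and chance gives about 1 in 20.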

How the results depend on the processing

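Of 1730 values of single members under the alternatives, 1654 kept their side of the threshold, 54 lost a call and 22 gained one. No called member changed sign. Uncalled members could, as Fkbp1a did in acute against untreated mice, where its log2 fold change ran from -0.28 to 0.05. Without single libraries the number of members called ran from 0 to 1 for acute and for delayed against untreated mice, from 0 to 7 for delayed against acute mice, from 0 to 1 for stroke in WT mice, from 0 to 2 for stroke in NSG mice and from 0 to 1 for NSG against WT mice without stroke. For delayed against acute mice, 6 called members became 1 at a minimum log2 fold change of 1, 3 with the name series as a covariate, 0 when the compared groups were fitted alone, 0 within TF and 0 with mouse 2_1 as the only acute sample. For stroke in WT mice, 1 became 0 at the minimum log2 fold change, 2 when the compared groups were fitted alone, 0 within Imm2 and 2 with the TF stroked mice only. For stroke in Rag2-/- mice, 0 became 3 when the compared groups were fitted alone and 1 with DESeq2. For stroke in NSG mice, 0 became 1 with a mean of at least 1 CPM, 2 with the name series as a covariate and 2 with DESeq2. For NSG against WT mice without stroke, 0 became 1 when the compared groups were fitted alone. For the name series, 2 became 1 in the untreated stroked mice only. The share of all genes called moved with these settings too, from 0% to 33.6% for delayed against acute mice. The cause was not tested.

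The replicate numbers did not pair the samples (correlations of deviations -0.27, 0.13 and -0.18 for NSG and WT mice), so they share only a number. With the replicate block 1 member, Nfatc2 (0.50, adjusted p = 0.0359, edgeR), was called for NSG against WT mice, against 0 in the same samples with no block, and 0 for Rag2-/- against WT mice in both.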
